A study of Mus musculus with 24 samples.

Results

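The genes described here are 10 that visceral endoderm uses to take up and to carry nutrients, chosen by name from a count table of 35591 genes: the uptake genes Cubn, Amn, Lrp2 and Dab2, and the carrier genes Apoe, Apoa1, Apob, Ttr, Afp and Rbp4. All 10 were rows of the table, and each was read in all 24 libraries. The libraries were poly(A) RNA sequencing of primary male mouse embryonic stem cell (mESC) lines, each line derived from a single blastocyst. The mothers were Castaneus, and the C57BL/6 fathers were Smchd1 del/fl and carried MMTV-Cre T/+, a Cre recombinase transgene driven by a mammary tumour virus promoter. There were 3 lines of genotype Smchd1[fl/+], called wt, and 3 of genotype Smchd1[del/+], called het, in which the copy of this chromatin silencing gene from the father is deleted. Each line was sampled in serum with LIF at day 0 and at day 2, day 2.5 and day 3 of differentiation to neuromesodermal progenitors (NMPs), the bipotent cells of the tail end of the embryo, in serum-free N2B27 medium with the growth factor FGF2, to which the Wnt pathway activator CHIR99021 was added at day 2. The 8 groups thus held 3 libraries each, with the line as the replicate and the 4 days of a line as repeated measures, and the comparison of het with wt asked whether losing 1 zygotic Smchd1 allele changes gene expression.

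Visceral endoderm is the epithelium that encloses the early embryo and feeds it before the placenta works. Cubilin, the product of Cubn, and amnionless, the product of Amn, form a receptor on its apical surface, which together with megalin, the product of Lrp2, brings in vitamin carriers, albumin and lipoproteins, and the adaptor DAB2 links these receptors to the clathrin coat. The same cells secrete apolipoproteins, transthyretin, alpha-fetoprotein and retinol binding protein. Parietal endoderm, its sister tissue, lays down the thick basement membrane of laminin and type IV collagen known as Reichert's membrane. Cubn, Lrp2 and Dab2 are also known from other endocytic epithelia, and Apoe from many cell types.

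The 2 sides of the gene set were measured at very different depths. Cubn, Lrp2, Dab2 and Apoe had 774 to 17828 counts in a library and Amn had 58 to 345, whereas Apob and Rbp4 did not pass 80 and 64 counts and Apoa1, Ttr and Afp did not pass 13, 22 and 12. Library totals ran from 7.10 to 20.8 M counts, so that 3 counts, taken as the smallest level a library can show, equal 0.422 counts per M counts in the smallest library, wt line 2 at day 2.5, and 0.144 in the largest. These 2 limits use the raw totals, whereas levels in counts per M (CPM) are given below on totals scaled by TMM factors. Smchd1 itself checked the labels. It lay between 124 and 217 CPM in the 12 wt libraries and between 87.3 and 124 CPM in the 12 het libraries, with no overlap on any day, and its counts summed over days in het lines were 59.1% of those in wt (log2 fold change -0.76, SE 0.07, adjusted p 0.00556 in the edgeR quasi-likelihood test, n = 3).

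The label visceral endoderm was not borne out by the defining cargo genes. Ttr, which carries thyroid hormone and retinol binding protein, had 0 counts in all 6 day 0 libraries, in 12 of the 24 libraries in all, and its highest value was 22 counts in wt line 3 at day 2.5. Afp, the fetal serum protein, had 0 counts in 16 libraries and at most 3 counts in 22. Apoa1, the main protein of high density lipoprotein, had 0 counts in 9 libraries and at most 3 counts in 19. At day 2.5 the wt lines had 5, 3 and 22 counts of Ttr and 3, 4 and 12 of Afp, above the 0, 2 and 0 and the 0, 1 and 0 counts of het lines, but both genes were under the filter on low counts on that day, and edgeR called neither without the filter. In the sum over days Ttr was tested and not called (adjusted p 0.536, unadjusted p 0.0450). A library with 0 counts allows a level of up to the 3 counts named above, which covers counting error only. Ehd1, an endocytic gene that most cells use, was also listed at 0 in all 24 libraries, so a 0 in this table does not by itself show that a gene was silent. Of the 17 other secreted carriers and plasma proteins examined, Alb, Fga, Serpina1a and Serpina1b had 0 counts in every library. Of 8 markers of definitive and anterior visceral endoderm, Hhex, Cer1, Gsc and Pyy had at most 4, 7, 4 and 18 counts in a library, whereas Trh, Lefty1, Spink1 and Cxcr4 reached 5575, 865, 725 and 142 counts. The set is therefore described below as uptake genes with abundant reads and carrier genes of which Apoe alone was abundant.

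**Figure D1:**
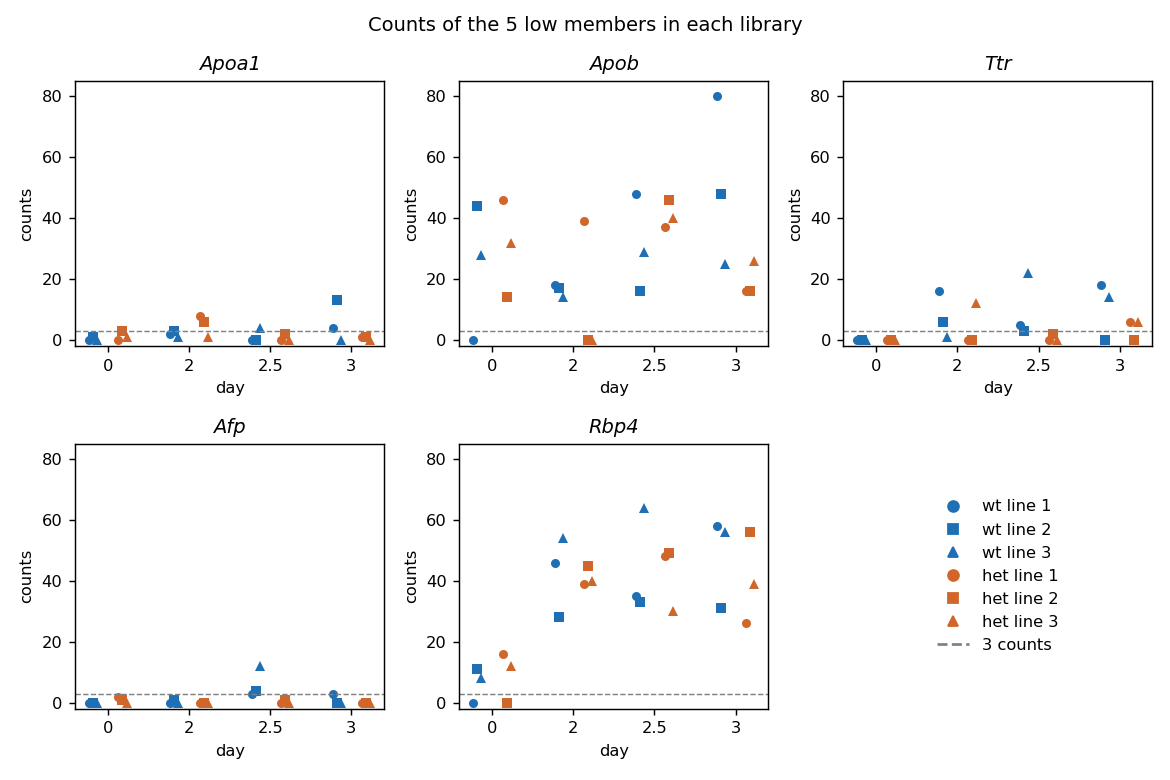
Counts (vertical axis) of Apoa1, Apob, Ttr, Afp and Rbp4 in each of the 24 libraries by day (horizontal axis), with genotypes in colour and lines by marker, and a dashed line at 3 counts. No library passes 80 counts for any of the 5 genes, and Afp lies at or under 3 counts in 22 of 24 libraries.

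The promoters of the 3 genes that the genotype comparison called at day 2, Cubn, Amn and Dab2, and of Lrp2, which varied with them, are given so that their sequences can be set side by side. They come from RefSeq on GRCm38.p6, run 5′ to 3′ on the strand of the gene, stop before the first annotated exon, and are in lower case except for 3 searched motifs. The motifs were GATAA (bound by GATA factors), GTTAAT (part of the HNF1 site) and CAAAGT (part of the HNF4 site), each sought on both strands from 250 bases before to 50 bases after the start site.
Cubn, chr2:13491877-13492126, minus strand: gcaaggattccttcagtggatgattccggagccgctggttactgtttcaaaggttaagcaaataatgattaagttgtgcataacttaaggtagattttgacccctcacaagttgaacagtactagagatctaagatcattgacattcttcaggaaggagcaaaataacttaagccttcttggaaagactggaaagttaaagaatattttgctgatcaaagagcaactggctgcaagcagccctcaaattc
Amn, chr12:111270846-111271094, plus strand: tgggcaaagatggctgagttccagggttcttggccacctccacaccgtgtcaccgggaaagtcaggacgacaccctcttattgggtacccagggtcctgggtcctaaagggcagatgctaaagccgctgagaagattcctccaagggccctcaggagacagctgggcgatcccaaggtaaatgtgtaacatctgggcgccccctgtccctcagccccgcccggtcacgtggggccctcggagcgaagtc
Lrp2, chr2:69586066-69586279, minus strand: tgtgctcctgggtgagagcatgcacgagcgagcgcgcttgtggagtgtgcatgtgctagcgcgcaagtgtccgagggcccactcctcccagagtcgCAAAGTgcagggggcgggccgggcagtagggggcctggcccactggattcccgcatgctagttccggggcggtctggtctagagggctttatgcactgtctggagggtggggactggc
Dab2, chr15:6299539-6299787, plus strand: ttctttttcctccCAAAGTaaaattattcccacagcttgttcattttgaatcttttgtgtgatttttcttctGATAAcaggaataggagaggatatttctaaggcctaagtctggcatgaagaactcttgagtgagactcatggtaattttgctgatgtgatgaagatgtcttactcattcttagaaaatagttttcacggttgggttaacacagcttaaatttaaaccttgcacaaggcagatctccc

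The windows of Cubn and Amn held none of the 3 motifs. Lrp2 held CAAAGT at position -154 from the start site. Dab2 held CAAAGT at -237 and GATAA at -178, and GATAA again on the other strand at 14 bases past the start. Among the 9 members with a promoter in the table (Ttr had none), GATAA was found in 3 (Dab2, Apob, Apoa1), GTTAAT in 3 (a further start of Dab2, a further start of Apoe, and Afp) and CAAAGT in 2. Some genes have several start sites: the 9 members had 13 windows, of which 3, 3 and 2 held these motifs. Of all 32851 promoter windows, 25.4% held GATAA, 7.1% held GTTAAT and 14.4% held CAAAGT. In the authors' genome build, Cubn spans chromosome 2 from 13276338 to 13491813, Amn chromosome 12 from 111271095 to 111276426, Lrp2 chromosome 2 from 69424340 to 69586065 and Dab2 chromosome 15 from 6299788 to 6440712. Exons of Cubn overlap the gene Gm13270 and exons of Dab2 overlap Gm18888, each on the other strand, and whether reads were counted by strand is not given in the sources used here, so reads of these pairs cannot be told apart.

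Per kilobase of exon, Apoe was the most abundant of the set and the uptake genes came next. The mean over 24 libraries was 160 reads per kilobase of exon in CPM units (RPKM) for Apoe, 23.4 for Dab2, 23.0 for Cubn, 17.0 for Lrp2 and 5.72 for Amn. Rbp4 followed at 1.473 RPKM, and Ttr, Apob, Apoa1 and Afp at 0.222, 0.116, 0.0988 and 0.0228 RPKM. The ranges of Dab2 (5.88 to 59.8 RPKM), Cubn (4.12 to 59.3) and Lrp2 (7.94 to 33.2) overlapped over the 24 libraries. The order of Cubn and Lrp2 turned between days: the ratio of Cubn to Lrp2 RPKM was 0.519 to 0.888 in the libraries of day 0, 0.976 to 1.79 at day 2, 1.24 to 1.468 at day 2.5 and 1.26 to 1.96 at day 3. By mean CPM, which does not take length into account, Cubn and Apoe stood at places 452 and 454 of the 35591 genes, Lrp2 at 601 and Dab2 at 1198, and Amn at 9595. Although the products of Cubn and Amn act as 1 complex, the ratio of their RPKM was not fixed: Cubn over Amn was 2.50 ± 1.43 in wt lines at day 0, 6.07 ± 0.401 at day 2 and 3.90 ± 0.464 at day 3 (SD, n = 3), and 2.60 ± 0.554, 6.503 ± 0.881 and 3.33 ± 0.139 in het lines.

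Cubn, the ligand-binding part of the receptor, was lower in het lines at day 2. In the wt lines 1, 2 and 3, Cubn stood at 173, 181 and 240.2 CPM at day 0, 471, 699.6 and 886 CPM at day 2, 203, 409 and 637 CPM at day 2.5, and 300.1, 581 and 554 CPM at day 3. In the het lines it stood at 61.5, 117 and 117 CPM at day 0, 232, 373 and 378 CPM at day 2, 259.5, 363 and 272 CPM at day 2.5, and 159, 261 and 299 CPM at day 3. All het lines lay under all wt lines at day 0, day 2 and day 3, while at day 2.5 wt line 1 was the lowest of the 6. At day 2 the log2 fold change of het against wt was -1.07 (SE 0.19, adjusted p 0.0172, edgeR quasi-likelihood test, n = 3), so that het lines had 47.5% of the wt level. At day 0 and day 3 the values were -1.03 (SE 0.20, adjusted p 0.334) and -1.01 (SE 0.26, adjusted p 0.301), of like size but short of the threshold, and at day 2.5 the value was -0.48 (SE 0.31, adjusted p 0.908).

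Amn encodes the membrane anchor that brings cubilin to the cell surface, and it too was lower in het lines at day 2. In the wt lines it stood at 16.4, 5.48 and 14.003 CPM at day 0 and 10.4, 13.9 and 17.2 CPM at day 2 (group mean 13.8 ± 3.40, SD, n = 3), and in the het lines at 3.24, 4.45 and 6.496 CPM at day 0 and 5.22, 6.496 and 6.72 CPM at day 2 (6.145 ± 0.810). At day 0 wt line 2 fell within the het range, and at day 2 the groups did not overlap. At day 2.5 the wt lines had 9.79, 14.9 and 17.3 CPM against 9.73, 12.4 and 7.93 in het lines, and at day 3 they had 11.0, 17.3 and 16.3 CPM against 6.19, 9.42 and 10.9. The groups overlapped at day 2.5 and were narrowly apart at day 3. The log2 fold change at day 2 was -1.17 (SE 0.25, adjusted p 0.0453), and the other days gave -1.36 at day 0, -0.47 at day 2.5 and -0.76 at day 3, with adjusted p of 0.334, 0.907 and 0.404.

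Dab2, the clathrin adaptor, gave the third call. The wt lines had 57.2, 86.0 and 105 CPM at day 0 and 175, 269 and 300.5 CPM at day 2, and the het lines had 43.2, 63.3 and 64.6 CPM at day 0 and 92.5, 135 and 141 CPM at day 2. The groups were apart at day 2 and overlapped at day 0 through wt line 1. At day 2.5 the wt lines spread from 151 to 439 CPM around the het values of 177, 261 and 153, and at day 3 they had 150.5, 283 and 278 CPM against 89.0, 128 and 166. The log2 fold change of het against wt was -1.02 at day 2 (SE 0.17, adjusted p 0.0157) and -0.55, -0.61 and -0.91 at day 0, day 2.5 and day 3, with adjusted p of 0.377, 0.907 and 0.316.

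Lrp2, the megalin receptor that works with cubilin, was not called on any day by edgeR with all lines in and the filter on low counts. Without that filter it was called on each day (adjusted p 1.23e-10, 4.61e-09, 0.0283 and 0.000427). The whole table then gave 369, 384, 87 and 274 calls, against 0, 85, 0 and 1 with the filter. With the filter but without wt line 1, Lrp2 was called at day 0 (adjusted p 0.00900), day 2 (0.000186) and day 3 (0.0261). The whole table gave 35, 211 and 93 calls in these 3 fits. At day 2 the wt lines stood at 294, 502 and 554 CPM and the het lines at 266, 282 and 327 CPM, so that wt line 1 lay among the het lines. At day 0 the wt lines (218, 247 and 313 CPM) lay above the het lines (133, 179.8 and 196 CPM). At day 2.5 the wt lines ranged from 154 to 554 CPM and enclosed the het lines, and at day 3 the wt lines had 171, 380.4 and 384 CPM and the het lines 141, 197 and 208. The log2 fold changes were -0.63, -0.63, -0.49 and -0.79 at day 0, day 2, day 2.5 and day 3, with adjusted p of 0.334, 0.114, 0.909 and 0.408.

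Apoe, the apolipoprotein that serves as ligand for receptors of the LDL family, was not called on any day by edgeR with all lines in and the filter on low counts. Without that filter it was called at day 0 (adjusted p 0.000514) and day 2.5 (0.0103), where the whole table gave 369 and 87 calls. At day 2 the wt lines had 569.6, 230.1 and 526.5 CPM and the het lines 423, 465 and 442 CPM, so that wt line 2 was the lowest of the 6 and the groups overlapped (log2 fold change -0.0039, SE 0.21, adjusted p 0.998). At day 2.5 the wt lines (288, 282 and 282 CPM) lay above the het lines (192, 215 and 185 CPM), and at day 0 the wt lines (423, 320.4 and 371 CPM) lay above the het lines (289, 299 and 279.7 CPM). The log2 fold change was -0.38 (SE 0.09, adjusted p 0.334) at day 0 and -0.52 (SE 0.10, adjusted p 0.907) at day 2.5, short of the threshold on both days, and the groups overlapped at day 3 with a value of -0.31 (317, 394 and 456 CPM against 231, 424 and 294).

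**Figure D2:**
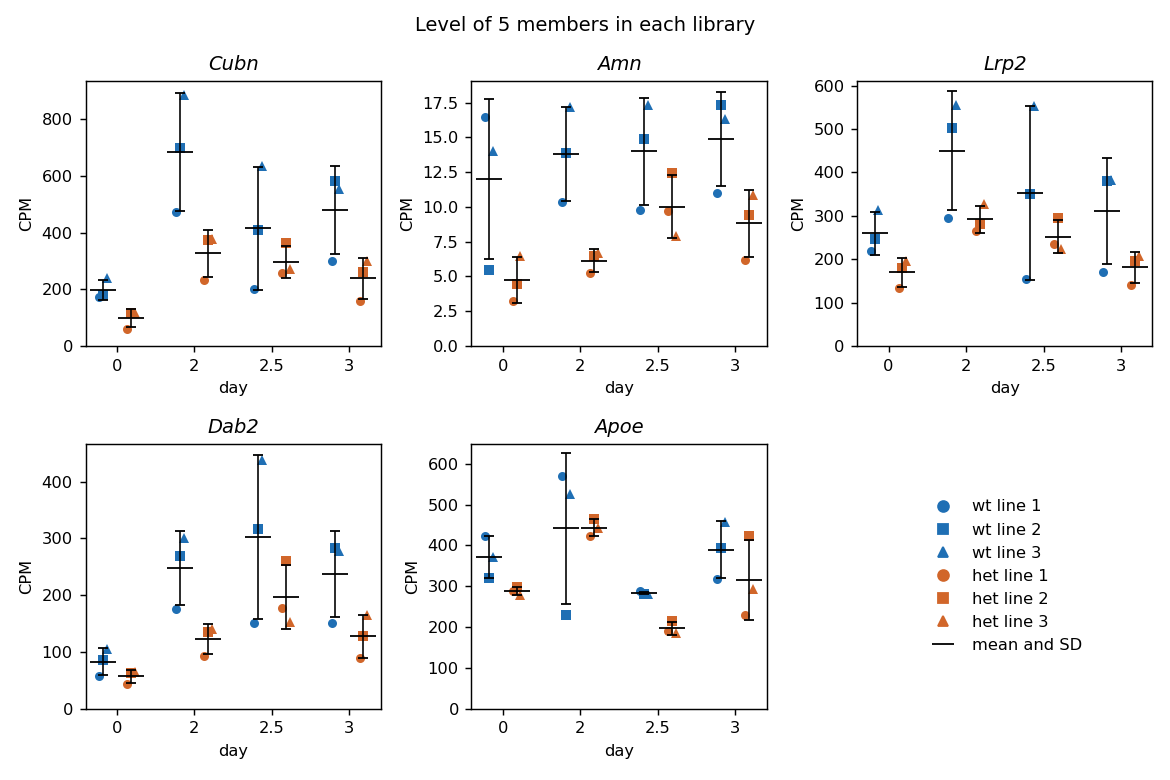
CPM (vertical axis, from 0) of Cubn, Amn, Lrp2, Dab2 and Apoe by day (horizontal axis) in the 3 wt and 3 het lines, 1 point a library, with the mean and SD of each group. At day 2 the het lines of Cubn, Amn and Dab2 lie under all wt lines, and at day 2.5 wt line 1 is low and wt line 3 high for Cubn, Lrp2 and Dab2.

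Over the gene set, 7 of the 10 members passed the filter on low counts on each day, Ttr, Afp and Apoa1 not. At day 2, 3 of these 7 were called lower in het lines and 0 higher, where 0.551% of the 15414 genes tested were called in either direction and 0.5% lower, and 4 had an unadjusted p under 0.05 (10.2% of all genes). The het lines lay under all wt lines for these 3 members, which 8.19% of all genes did. The members' median log2 fold change was -0.63, beside 0.0018 over all genes tested. At day 0, edgeR called 0 of the 7 (0% of all genes tested were called), 5 had an unadjusted p under 0.05 (10.9% of all genes did) and the DESeq2 Wald test called 3 (82 of all 15108 genes). The het lines lay under all wt lines for 3 members (Cubn, Lrp2 and Apoe), against 7.93% of all genes. At day 2.5 edgeR called 0 of the 7 (0% of all genes), 1 had an unadjusted p under 0.05 (5.27% of all genes) and DESeq2 called 1 (3 of all 15588 genes). That member, Apoe, was the 1 with groups apart (5.22% of all genes were lower in this way). At day 3 edgeR called 0 of the 7 (0.00638% of all genes), 5 had an unadjusted p under 0.05 (9.13% of all genes) and DESeq2 called 0 (116 of all 15686 genes). Cubn, Amn and Apob, 3 members, were lower with groups apart (5.87% of all genes). All 7 log2 fold changes were negative at day 2.5 and day 3, where the medians were -0.49 and -0.79. In counts summed over the 4 days of a line, 8 members were tested, edgeR called 0 (0.00544% of all genes), 6 had an unadjusted p under 0.05 (9.05% of all genes), 2 were lower with groups apart (6.66% of all genes) and DESeq2 called 1 (145 of all 18371 genes). The genes are known to be used together and the days share lines, so these counts are not independent of each other. The 10 genes, and the lists of other genes below, were chosen with earlier results of these data known. The shares of all genes beside them are therefore descriptions and do not test a set.

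The 3 calls at day 2 depended on the lines included. The DESeq2 Wald test called Amn and Dab2 but not Cubn (adjusted p 0.0608), where it called 233 of all 15414 genes. Without wt line 3, het line 1, het line 2 or het line 3 none of the 3 was called by edgeR, with adjusted p of 0.0810 to 0.332 for Cubn, Amn and Dab2, while 8, 1, 3 and 0 genes of the whole table were called and 1240 to 1394 had an unadjusted p under 0.05. Without wt line 1, Lrp2 was called as well (-0.87, adjusted p 0.000186). Without wt line 2, Amn was not (adjusted p 0.0668). The log2 fold changes themselves stayed between -1.35 and -0.84 for the 3 genes over these 6 fits. At day 0, 3 members were called without wt line 1 and 3 without wt line 2, where the whole table gave 35 and 68 calls. At day 3, 3 members were called without wt line 1, and 4 in the counts summed over days, where the whole table gave 93 and 404 calls. In 1 fit of all 24 libraries, which shares its estimate of the spread over days, none of the 3 was called at day 2 (adjusted p 0.137 for Cubn, 0.116 for Amn and 0.145 for Dab2).

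**Figure D3:**
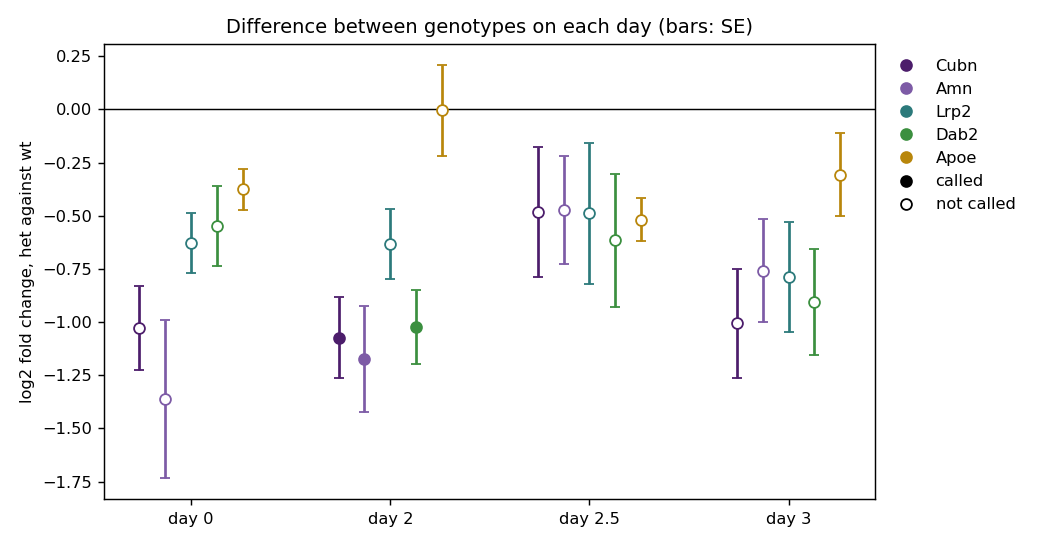
Log2 fold change of het against wt (vertical axis, bars are SE) for Cubn, Amn, Lrp2, Dab2 and Apoe on each day (horizontal axis), with filled points for calls at an adjusted p under 0.05. The filled points are Cubn at -1.07, Amn at -1.17 and Dab2 at -1.02 at day 2, and every other point is open.

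Genes of extraembryonic endoderm were called lower beside the uptake genes at day 2, where 0.5% of all genes were called lower and the median log2 fold change of all genes was 0.0018. Of the 10 extraembryonic endoderm factors, all 10 had negative log2 fold changes at day 2 (median -1.09) and 4 were called lower, among them the GATA factor gene Gata4 (-1.06, SE 0.18, adjusted p 0.0170), the receptor gene Pdgfra (-1.19, SE 0.21, adjusted p 0.0172) and Sox7 (-1.52, SE 0.22, adjusted p 0.00971), with Gata6 at -0.88 (SE 0.19, adjusted p 0.0509). Of the 10 parietal endoderm markers, 9 were called lower and all 10 were negative (median -1.005), among them the type IV collagen gene Col4a1 (-1.03, SE 0.16, adjusted p 0.0118) and the laminin genes Lama1 (-1.02, SE 0.21, adjusted p 0.0453), Lamb1 (-0.94, SE 0.19, adjusted p 0.0352) and Lamc1 (-0.86, SE 0.18, adjusted p 0.0425). Without wt line 3, het line 1, het line 2 or het line 3, edgeR called 8, 1, 3 and 0 genes of the whole table at day 2. Each is fewer than the 9 parietal endoderm calls alone. The fit of all 24 libraries called 23. With all lines in and the filter, edgeR called 0, 0 and 1 genes at day 0, day 2.5 and day 3. The summed level of the 10 parietal endoderm markers was apart between genotypes at day 0 and overlapped at day 2.5 and day 3. At day 2 it ran from 8635 to 17747 CPM in wt lines and from 5512 to 7523 CPM in het lines, with none of the 10 at 0 in any library. The part of this difference in that of the uptake genes was not tested. In libraries of whole cultures, fewer cells of a type and less RNA of a gene per cell cannot be told apart.

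The ratio of the 4 uptake genes to the 10 parietal endoderm markers, in summed CPM, was alike in the 2 genotypes at day 2. It was 0.109 ± 0.00918 in wt and 0.112 ± 0.00792 in het lines (SD, n = 3), with overlapping ranges of 0.0991 to 0.117 and 0.106 to 0.121. The ranges also overlapped at day 0 (0.145 to 0.179 in wt, 0.136 to 0.168 in het) and at day 2.5 (0.0887 to 0.114 and 0.0942 to 0.102). At day 3 they were apart, at 0.111 to 0.118 in wt and 0.0821 to 0.0920 in het lines. Over the 24 libraries the ratio ran from 0.0821 to 0.179.

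**Figure D4:**
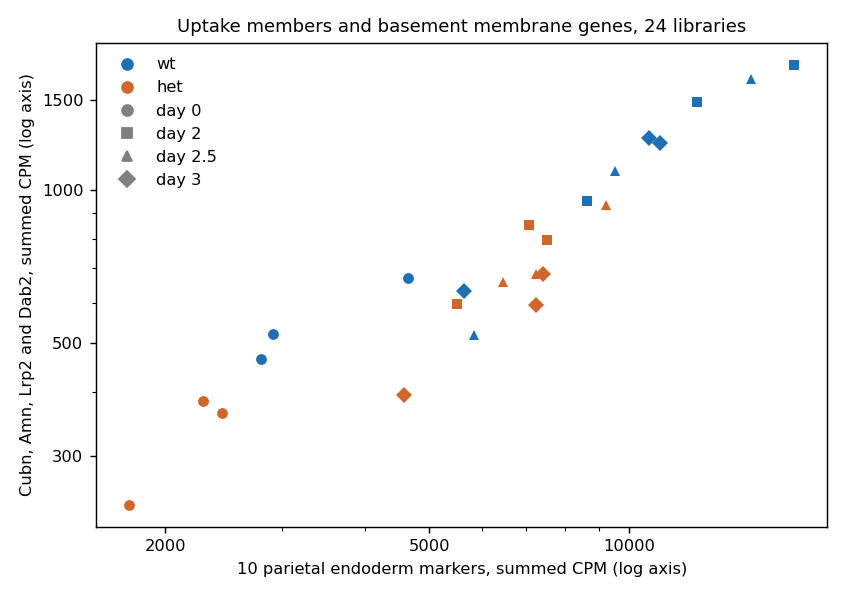
Summed CPM of Cubn, Amn, Lrp2 and Dab2 (vertical log axis) against summed CPM of 10 parietal endoderm markers (horizontal log axis) in the 24 libraries, with genotypes in colour and days by marker. The het day 0 libraries lie at the lower left, wt line 3 at day 2 lies at the upper right, and wt line 1 at day 2.5 lies among the het libraries.

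Other genes of uptake and transport are set beside the 0.551% of all genes called at day 2 and the 10.2% with an unadjusted p under 0.05. Of 17 further endocytic receptors and adaptors, 16 were tested and 1 was called lower in het lines, the lysosomal protease gene Lgmn (-0.999, SE 0.18, adjusted p 0.0192), with a median of -0.06. The clathrin heavy chain gene Cltc was at 0.01 (adjusted p 0.989), the transferrin receptor gene Tfrc at 0.27 (adjusted p 0.353) and the chloride exchanger gene Clcn5 at -0.30 (adjusted p 0.359). Of 16 genes of lipoprotein assembly and apolipoproteins, 10 were tested and 0 called by edgeR, 3 with an unadjusted p under 0.05, and their summed level of 1037, 1143 and 1347 CPM in wt lines lay above the 915, 1004 and 928 CPM of het lines. Of 17 secreted carriers and plasma proteins, 6 were tested and 0 called, 0 with an unadjusted p under 0.05. Among 10 trophoblast markers, 7 were tested and 1 was called lower, Tpbpa (-1.41, SE 0.25, adjusted p 0.0172), and of 8 definitive and anterior visceral endoderm markers, 4 were tested and 1 was called lower, the protease inhibitor gene Spink1 (-1.16, SE 0.21, adjusted p 0.0192). Of 8 fibroblast and feeder markers, 10 pluripotent cell markers and 10 NMP markers, edgeR called 0, with 1, 3 and 0 at an unadjusted p under 0.05.

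From day 0 to day 2 Cubn, Dab2 and Lrp2 rose in both genotypes. Cubn rose 3.48-fold in wt lines (log2 fold change 1.80, SE 0.19, adjusted p 4.14e-06) and 3.36-fold in het lines (1.75, SE 0.20, adjusted p 2.63e-06), and Dab2 rose 3.02-fold and 2.17-fold. Lrp2 rose 1.75-fold and 1.73-fold, with adjusted p of 0.00322 in wt and 2.26e-05 in het lines. Amn was not called in either genotype (log2 fold change 0.21 in wt, 0.39 in het), with wt line 1 at -0.67. In all, 4 of 7 members tested were called higher in wt lines, where 44.3% of genes were called and 22.4% were higher, and 5 of 7 in het lines, where 56.1% were called and 28% were higher. The parietal endoderm markers rose over the same interval, 9 of 10 in each genotype (median log2 fold change 1.82 in wt, 1.57 in het), whereas all 10 pluripotent cell markers fell in both.

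The carrier genes changed in part over that interval. Apoe rose 1.54-fold in het lines (log2 fold change 0.62, SE 0.06, adjusted p 1.96e-07) and gave 0.26 in wt lines (adjusted p 0.402), where line 2 went down by 0.48 on the log2 scale. Rbp4, the plasma carrier of retinol, was higher at day 2 in both genotypes, with 0, 11 and 8 counts in wt lines at day 0 and 46, 28 and 54 at day 2, and with 16, 0 and 12 counts in het lines at day 0 and 39, 45 and 40 at day 2. The day 2 libraries lay above the day 0 libraries in both genotypes. The log2 fold changes of Rbp4 were 2.39 in wt (SE 0.91, adjusted p 0.0462, and 0.0628 with the line as a block) and 2.17 in het (SE 0.76, adjusted p 0.0230), on counts that were 0 in 1 line of each genotype at day 0. Rbp4 was not called in wt lines when any 1 of the 3 was left out, nor in het lines without line 1 or line 2 (adjusted p up to 0.210 and 0.0571). Apob, the structural protein of low density lipoprotein, had 46, 14 and 32 counts in het lines at day 0 and 39, 0 and 0 at day 2, with line 1 at 2.57 and 2.34 CPM. This difference was not called (log2 fold change -1.21, SE 1.05, adjusted p 0.345), and with the line as a block it was (-2.70, SE 1.10, adjusted p 0.0417). It was called without het line 1, where both day 2 libraries were at 0, and the fitted values without 1 line ran from -7.56 to -0.55 (adjusted p 0.00451 to 0.698).

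Between day 2 and day 2.5, after CHIR99021 was added at day 2, the genotypes gave different lists of calls, with no call on the difference between them. In wt lines edgeR called 0 of 7 members, against 29.1% of all genes, and 3 had an unadjusted p under 0.05, against 40.3% of all genes. With the line as a block 3 were called, Cubn (log2 fold change -0.82, SE 0.14, adjusted p 0.000305), Lrp2 (-0.49, SE 0.15, adjusted p 0.0198) and Apoe (-0.54, SE 0.19, adjusted p 0.0372). The block called 4798 of all 15540 genes tested. In het lines Amn rose (0.69, SE 0.24, adjusted p 0.0293), Dab2 rose (0.67, SE 0.18, adjusted p 0.00811) and Apoe fell (-1.19, SE 0.09), 3 of 7 members against 44.7% of all genes. Without het line 1 or het line 2, neither Amn nor Dab2 was called. By line, Cubn changed by -1.22, -0.77 and -0.48 on the log2 scale in wt lines and by 0.16, -0.04 and -0.47 in het lines. Apoe went down in all 3 het lines, by 1.11 to 1.26 on the log2 scale, and in wt lines changed by -0.99, 0.29 and -0.90, with line 2 alone going up.

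Between day 2.5 and day 3 Apoe rose in both genotypes, by 0.46 on the log2 scale in wt lines (SE 0.13, adjusted p 0.0283). In het lines it rose by 0.65 (SE 0.17, adjusted p 0.0146), and each of the 6 lines had a higher value at day 3. The call in wt lines was lost without line 2 or line 3, and that in het lines without line 3. Apoe was the 1 member of 8 tested that was called in wt lines (19.1% of all genes). In het lines 4 of 7 were called (29.8% of all genes): besides Apoe, Lrp2 fell (-0.50, SE 0.14, adjusted p 0.0233), Dab2 fell (-0.66, SE 0.22, adjusted p 0.0402) and Apob fell (-1.15, SE 0.38, adjusted p 0.0388, and 0.0545 with the line as a block). Without het line 1 or het line 2, only Apoe of these 4 was called, and without het line 3 only Lrp2 and Dab2. Het line 3 did not take part in the change of Dab2 (0.12, against -0.99 and -1.03 in lines 1 and 2). Apob had 37, 46 and 40 counts in het lines at day 2.5 and 16, 16 and 26 at day 3, where the wt lines had 80, 48 and 25. At day 3 the Apob levels of 0.819, 0.754 and 1.28 CPM in het lines lay under the 3.67, 2.89 and 1.52 CPM of wt lines, without a call. The interaction of genotype with each of the 3 intervals was called for 0 members by edgeR and for 0 genes of the table (DESeq2 called 10, 0 and 0 genes of the table), and among members 0, 0 and 1 had an unadjusted p under 0.05, the last being Apob (6.31%, 5.13% and 3.85% of all genes did). Such an interaction tests whether the change between days differs between genotypes.

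Within groups, the uptake genes varied together from line to line. On log2(CPM + 1) with each group's mean removed, Pearson's r over the 24 libraries was 0.94 for Cubn with Lrp2, 0.95 for Cubn with Dab2 and 0.94 for Lrp2 with Dab2, and 0.60 to 0.72 for Amn with these 3. The libraries of a line share that line, and all values share the scaling of a library, so these are descriptions. Apoe had r of 0.07 to 0.28 with the 4 uptake genes. The low members gave -0.46 to 0.43 with them, in counts too sparse to read. The mean of the 4 uptake genes had a median r of 0.93 with the 10 parietal endoderm markers and 0.88 with the 10 extraembryonic endoderm factors, beside -0.05 over the 14434 genes with a mean of at least 1 CPM, and -0.12 with 16 other endocytic receptors and adaptors. The 5 genes outside the set whose within-group pattern was most like the mean of the 10 members were Snx2 (r 0.96), a sorting nexin of endosomes, P4ha1 (0.95), which hydroxylates collagen prolines, Plod2 (0.94), which hydroxylates collagen lysines, Retreg1 (0.94), a receptor for turnover of the endoplasmic reticulum, and Podxl (0.93), a sialomucin of apical membranes, out of 14424 genes compared.

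**Figure D5:**
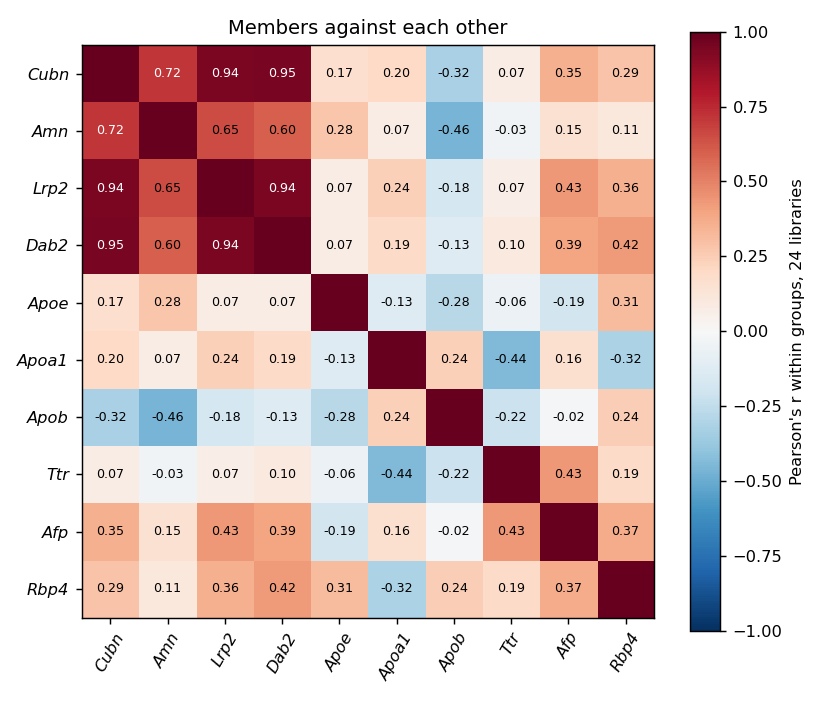
Pearson's r between members over 24 libraries, on log2(CPM + 1) with group means removed, in rows and columns of genes with a colour scale from -1 to 1. Cubn, Lrp2 and Dab2 form a block of 0.94 to 0.95, Amn joins at 0.60 to 0.72, and Apoe stays at 0.07 to 0.28 with these 4.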

How the data were processed

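RNA sequencing was deposited for 24 libraries of 6 mESC lines. The authors trimmed reads with Trim Galore 0.4.4, aligned them with HISAT2 2.0.5 to GRCm38.p6 and counted genes in SeqMonk, and the deposited file holds these raw counts per gene with no normalization. Deposited tables of log2 RPKM hold other genes and were not used, nor were columns of group means. The raw totals ran from 7.10 to 20.8 M. No molecular identifiers were used, so the limits given cover counting error alone.

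Counts were scaled with TMM factors, filtered with filterByExpr by group and compared by the edgeR 4.0.16 quasi-likelihood test in R 4.3.3, with Benjamini-Hochberg adjustment over all genes tested. A gene is called at an adjusted p under 0.05. SE is the absolute log2 fold change over the square root of F. RPKM divides CPM by the union of exons in GENCODE vM21. The test was tried on simulated data of the day 2 design before use. Alternatives were DESeq2 1.42.0 size factors and its Wald test, library totals alone, no filter beyond 1 count, 1 fit of all 24 libraries, a replicate block, and fits leaving out 1 line each.

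The 10 genes and the lists of other genes were chosen with earlier results of these data known. Named were the 10 genes, Smchd1, at most 4 genes of a list by highest mean CPM, and the 5 genes most like the set among those with a mean of at least 1 CPM. The list genes named as at 0 counts, and Hhex, Cer1, Gsc and Pyy, were chosen after their values were seen. Fold changes of Apob and Rbp4 are given only where called with or without the block. Days of a line share that line, so the comparison of days was also fitted with the line as a block, where same-line deviations correlated at -0.09 to 0.38 over 18 pairs. Whether lines were differentiated together is not stated, and p-values measure the spread between lines. Figures were drawn with matplotlib 3.10.9 in Python 3.11.15.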

Additional observations from a re-analysis of the deposited data

How the results depend on the processing

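Over the alternatives, 235 of 236 log2 fold changes of Cubn, Amn, Lrp2 and Dab2 in het against wt lines were negative, the exception being Lrp2 at day 2.5 without wt line 3 (range without 1 line -0.86 to 0.0100). These fits reuse the same 24 libraries and the 4 genes vary together, so the values are not independent results. Calls were less stable, and the cause was not tested. Without any filter beyond 1 count, the members called in het against wt were 5 at day 0 (Cubn, Amn, Lrp2, Dab2 and Apoe), 4 at day 2.5 (Cubn, Lrp2, Dab2 and Apoe), 3 at day 3 (Cubn, Lrp2 and Dab2) and 4 in the sum over days (Cubn, Amn, Lrp2 and Dab2), and 3 between day 2 and day 2.5 in wt lines. Lrp2 was among the members called at day 2 in this setting. The whole table then gave 369, 384, 87 and 274 calls from day 0 to day 3, against 0, 85, 0 and 1, 190 in the sum and 5015 between day 2 and day 2.5 in wt lines. The DESeq2 Wald test gave 3, 1 and 1 members at day 0, at day 2.5 and in the sum, and 82, 3 and 145 genes of the whole table. In 1 fit of all 24 libraries the members called were 0 in het against wt at day 2, 1 between day 2 and day 2.5 and 0 between day 2.5 and day 3 in wt lines, and 1 and 1 in het lines, where the whole table gave 23, 6158, 4278, 6797 and 3380 calls. Wt and het lines with the same number are different lines (deviations correlated at -0.13 to 0.19 over 12 pairs), and with the replicate block 3 members were called at day 0, 3 at day 3 and 3 in the sum (25, 100 and 50 genes of the whole table), and with the line as a block 3 were called between day 2 and day 2.5 in wt lines (4798 genes of the whole table); calls the block changed for single genes between days are given above. Leaving out 1 line gave 0 to 3 members at day 0, 0 to 4 at day 2, 0 to 3 at day 3, 0 to 4 in the sum, 1 to 2 and 0 to 2 in wt lines between day 2 and day 2.5 and between day 2.5 and day 3, and 1 to 2 in het lines between day 2.5 and day 3. The whole table gave 0 to 68, 0 to 211, 0 to 93 and 0 to 404 calls in the former 4, and 2249 to 3875, 29 to 3098 and 2386 to 3032 in the latter 3. Signs turned only for values short of a call: Apoe in het against wt at day 2 was 0.10 with the replicate block, 0.0039 in the fit of all libraries and -0.31 to 0.21 without 1 line, and without 1 line Amn ran from -0.14 to 0.70 (day 2 against day 0) and -0.0297 to 0.0614 (day 2.5 against day 2), Lrp2 from -0.36 to 0.15 (day 3 against day 2.5) in wt lines, and Cubn from -0.23 to 0.0333 (day 2.5 against day 2) in het lines. Ttr, Afp and Apoa1 did not pass the filter on low counts on any single day, and without it none of the 3 was called in het against wt.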
